A study of Homo sapiens with 12 samples.

Results

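The genes that set the phosphorylation of the translation factor eIF2α were read from microarrays of HuH-7 cells treated with the compound SLMP53-2. They are the kinases EIF2AK1, EIF2AK2, EIF2AK3 and EIF2AK4, the phosphatase subunits PPP1R15A and PPP1R15B, and EIF2S1, which encodes eIF2α. Every gene probe whose name in the scanner files is one of these 7 symbols was taken, which gave 10 of the 41000 gene probes and 7 of 29123 gene names. All 10 passed the filter on dim probes and were among the 33476 probes tested. PPP1R15A was called as higher at 42 µM, and none of the other 6 genes was called in any comparison.

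HuH-7 is a human hepatocellular carcinoma line whose p53 carries the mutation Y220C. Cells of all groups were exposed for 24 h to 28 µM SLMP53-2, to 42 µM SLMP53-2 or to the solvent DMSO alone, and each group holds 4 arrays, described as biological replicates, 12 arrays in all on 5 slides. The doses are 2 and 3 times the IC50, and one part of the sample labels gives the higher dose as 48 µM where another part and the study give 42 µM. On such 1-colour arrays a spot is brighter the more of its transcript the RNA holds, so that less RNA per cell and fewer cells making it cannot be told apart. All levels below are normalized log2 intensities, and levels of different probes are not on one scale.

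Phosphorylated eIF2α slows the start of translation on most mRNAs and favours a few, among them the mRNA of the transcription factor ATF4, a response called the integrated stress response. The kinases answer to different signals: EIF2AK1 (HRI) to a lack of heme and to mitochondrial stress, EIF2AK2 (PKR) to double-stranded RNA, EIF2AK3 (PERK) to unfolded proteins in the endoplasmic reticulum (ER), and EIF2AK4 (GCN2) to uncharged tRNA. PPP1R15A (GADD34) and PPP1R15B (CReP) bring protein phosphatase 1 (PP1) to eIF2α. PPP1R15A is the subunit that stress induces, PPP1R15B the one that is made steadily. The kinases are switched on by changes of the protein, which an array of transcripts does not read.

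The cell line and the arrays were checked first. All 10 genes fixed as liver markers were well above background on at least 11 of the 12 arrays. ALB was the brightest at 15.91 to 16.37, and HNF4A the dimmest at 6.43 to 6.85. Of 8 markers of blood, fibroblast and endothelial cells, PTPRC was well above background on 2 of 12 arrays at 5.72 to 5.95, and the other 7 on at least 10. COL1A1, COL3A1, DCN, PECAM1 and CDH5 lay between 5.90 and 6.89, CD14 read 7.39 to 8.22 and CD3D 7.81 to 9.23. No gene spot was saturated, and those well above background made up between 69.5% and 76.6% of them on the DMSO arrays, between 65.0% and 85.0% for 28 µM and between 71.3% and 78.5% for 42 µM. The highest share was on 28 µM replicate 1. One array stood apart in the stress genes. On 28 µM replicate 4 the median of 8 stress factors, a list described further on, lay 0.02 above their DMSO means, against 1.30 to 1.79 on the other 28 µM arrays, and the 28 µM values of PPP1R15A, EIF2AK3, EIF2AK4, EIF2S1 and the stress factors are also given without it.

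A probe was called when its adjusted p from limma was below 0.05 and its change reached 0.6 on the log2 scale, up or down. At 28 µM limma called 0 of the 10 member probes against DMSO, beside 0% of all tested probes, and 1 member probe had an unadjusted p below 0.05, beside 11% of all probes. The study reports differentially expressed genes at both doses under these limits. The 0% at 28 µM departs from that report, and the reason was not tested. No member probe had all 28 µM arrays on one side of all DMSO arrays, beside 5.37% of all probes. At 42 µM 1 member probe was called, beside 2.64% of all probes and 1.41% called as higher, and 3 had an unadjusted p below 0.05, beside 15.4%. The same 3 probes had groups that did not overlap, beside 12.3% of all probes, a share that comes to between 1 and 2 of 10 probes. Between 42 µM and 28 µM 0 member probes were called, beside 0%, with 0 at an unadjusted p below 0.05, beside 2.45%, and 0 without overlap, beside 1.48%. The median log2 fold change of the 10 probes was 0.05 at 28 µM and 0.09 at 42 µM, and that of all tested probes was −0.01 at both doses. Both doses were set against the same DMSO arrays, so that their changes are not independent of each other.

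**Figure D1:**
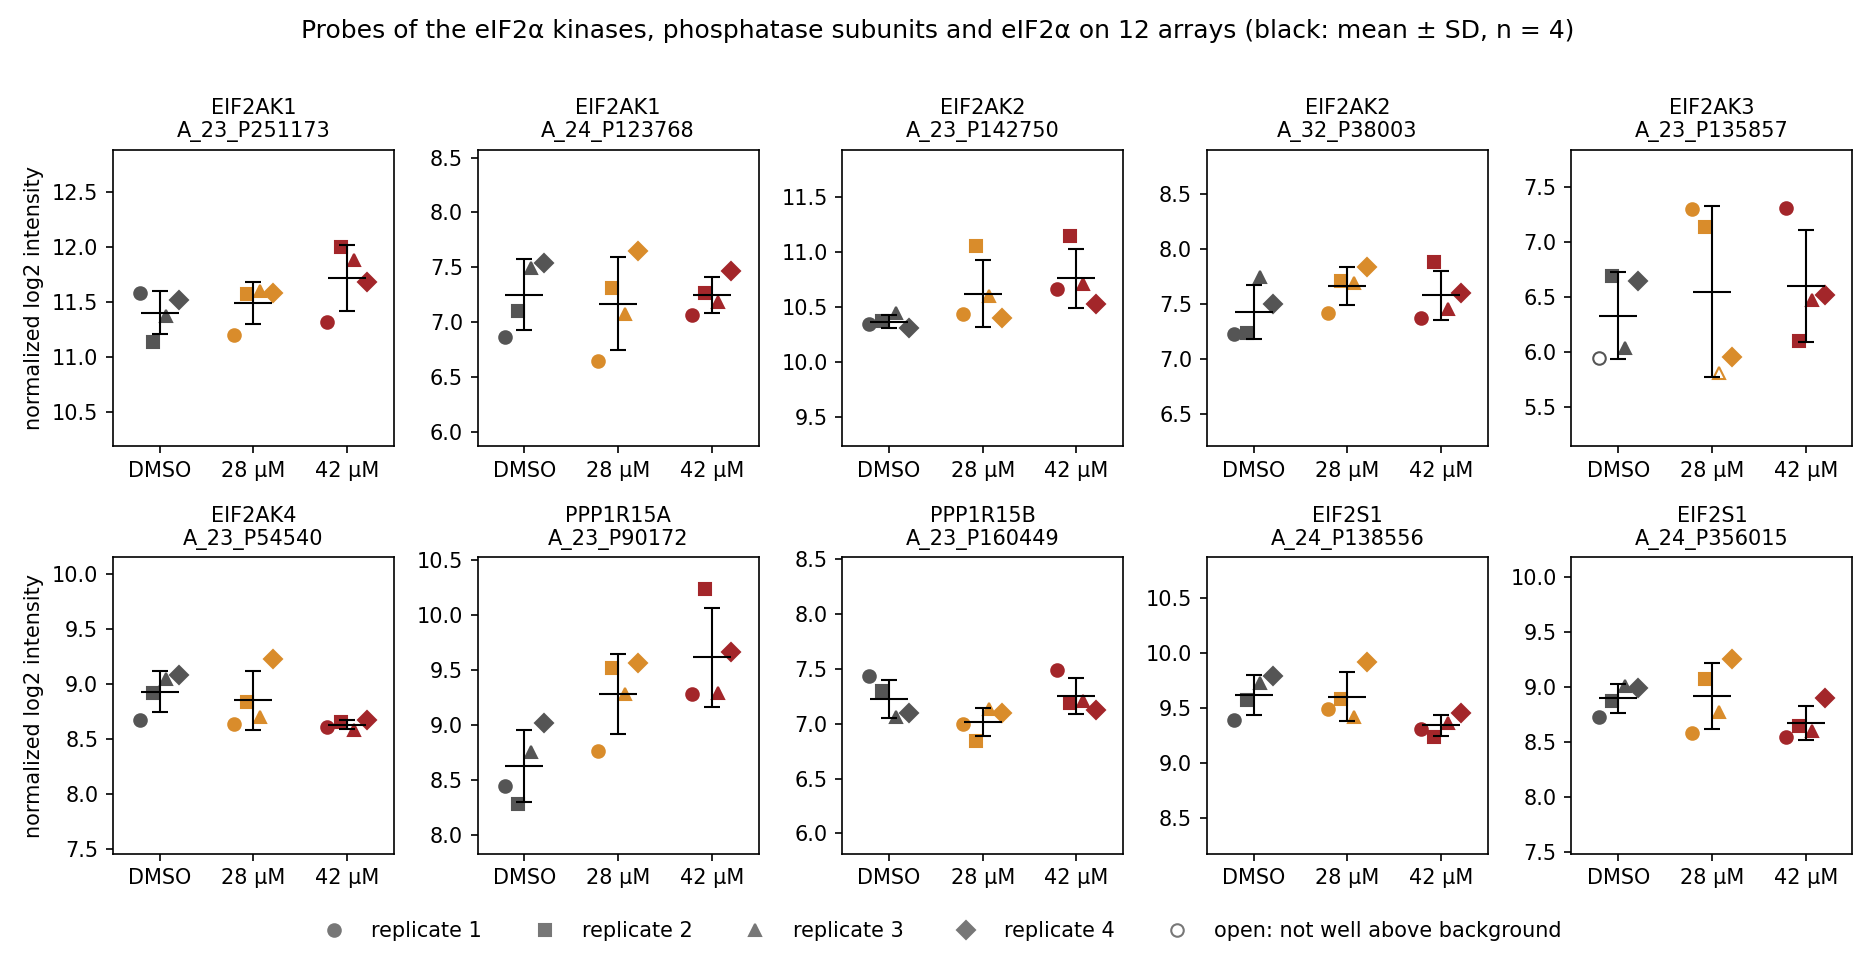
Normalized log2 intensity (y axis, a range of its own in each panel but the same length in all) of the 10 member probes on the DMSO, 28 µM and 42 µM arrays, with one marker shape per replicate number and the mean ± SD of 4 arrays in black. For PPP1R15A the 42 µM arrays read 9.28 to 10.24 and lay above all DMSO arrays, at 8.29 to 9.02.

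PPP1R15A, the inducible subunit, was the member with the largest change. Its probe, A_23_P90172, is the only one for this gene. It reads the transcript over a splice junction, since its 60 bases begin and end 775 bases apart on chromosome 19 of hg19, at 49378127 to 49378901 on the plus strand. The probe is shown because it covers the codons of the short docking motif through which the protein holds PP1, which are in capitals, so that the signal comes from the part of the mRNA that encodes PP1 binding.
PPP1R15A probe: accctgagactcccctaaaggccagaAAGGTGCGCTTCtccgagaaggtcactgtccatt

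The DMSO arrays read 8.45, 8.29, 8.76 and 9.02, in the order of their replicate numbers. At 28 µM the arrays read 8.76, 9.52, 9.28 and 9.57, and at 42 µM they read 9.28, 10.24, 9.29 and 9.66. All 42 µM arrays lay above all DMSO arrays, while 28 µM replicate 1 fell within the DMSO range. The means were 8.63 ± 0.33 for DMSO, 9.28 ± 0.37 for 28 µM and 9.62 ± 0.45 for 42 µM, each with the SD of 4 arrays.

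At 42 µM PPP1R15A rose by 0.99 on the log2 scale (SE 0.24, adjusted p = 0.0424 from limma), a fold of 1.99 with a 95% interval of 1.39 to 2.85. By size it was number 484 of the 33476 tested probes. At 28 µM the log2 fold change was 0.66 (SE 0.24, unadjusted p = 0.0168, adjusted p = 0.334), a fold of 1.57 with an interval of 1.10 to 2.25, and the smallest adjusted p of any probe there was 0.116. From 28 µM to 42 µM the change was 0.34 (SE 0.24, interval −0.18 to 0.85, adjusted p = 0.9995), which leaves a difference between the doses unresolved in either direction.

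The call at 42 µM was close to its limit. It was lost without DMSO replicate 1 (0.93, adjusted p = 0.119), 2 (0.88, 0.141), 3 (1.03, 0.0757) or 4 (1.12, 0.0555), without 28 µM replicate 3 (0.99, 0.0618), and without 42 µM replicate 1 (1.10, 0.0530), 2 (0.78, 0.139), 3 (1.10, 0.0527) or 4 (0.98, 0.0786). It was also lost with the slide as a fixed block (0.93, 0.0764) and with the processed signal scaled to the 75th percentile (1.04, 0.0768), and held with the slide as a random block (0.97, 0.0240). Over 24 alternatives the change stayed between 0.78 and 1.12. Within the slides that hold both groups, 1 array of each, the 42 µM array lay 0.26, 1.49 and 1.01 above the DMSO array, and the 28 µM array differed from it by 0.83, −0.26 and 0.81. The values of 0.26 and −0.26 are both from slide 2, set against DMSO replicate 4, the highest DMSO array at 9.02. The 28 µM array of that slide is replicate 1, which had the highest share of spots above background. Without 28 µM replicate 1 the change at 28 µM was 0.83 (adjusted p = 0.287).

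**Figure D2:**
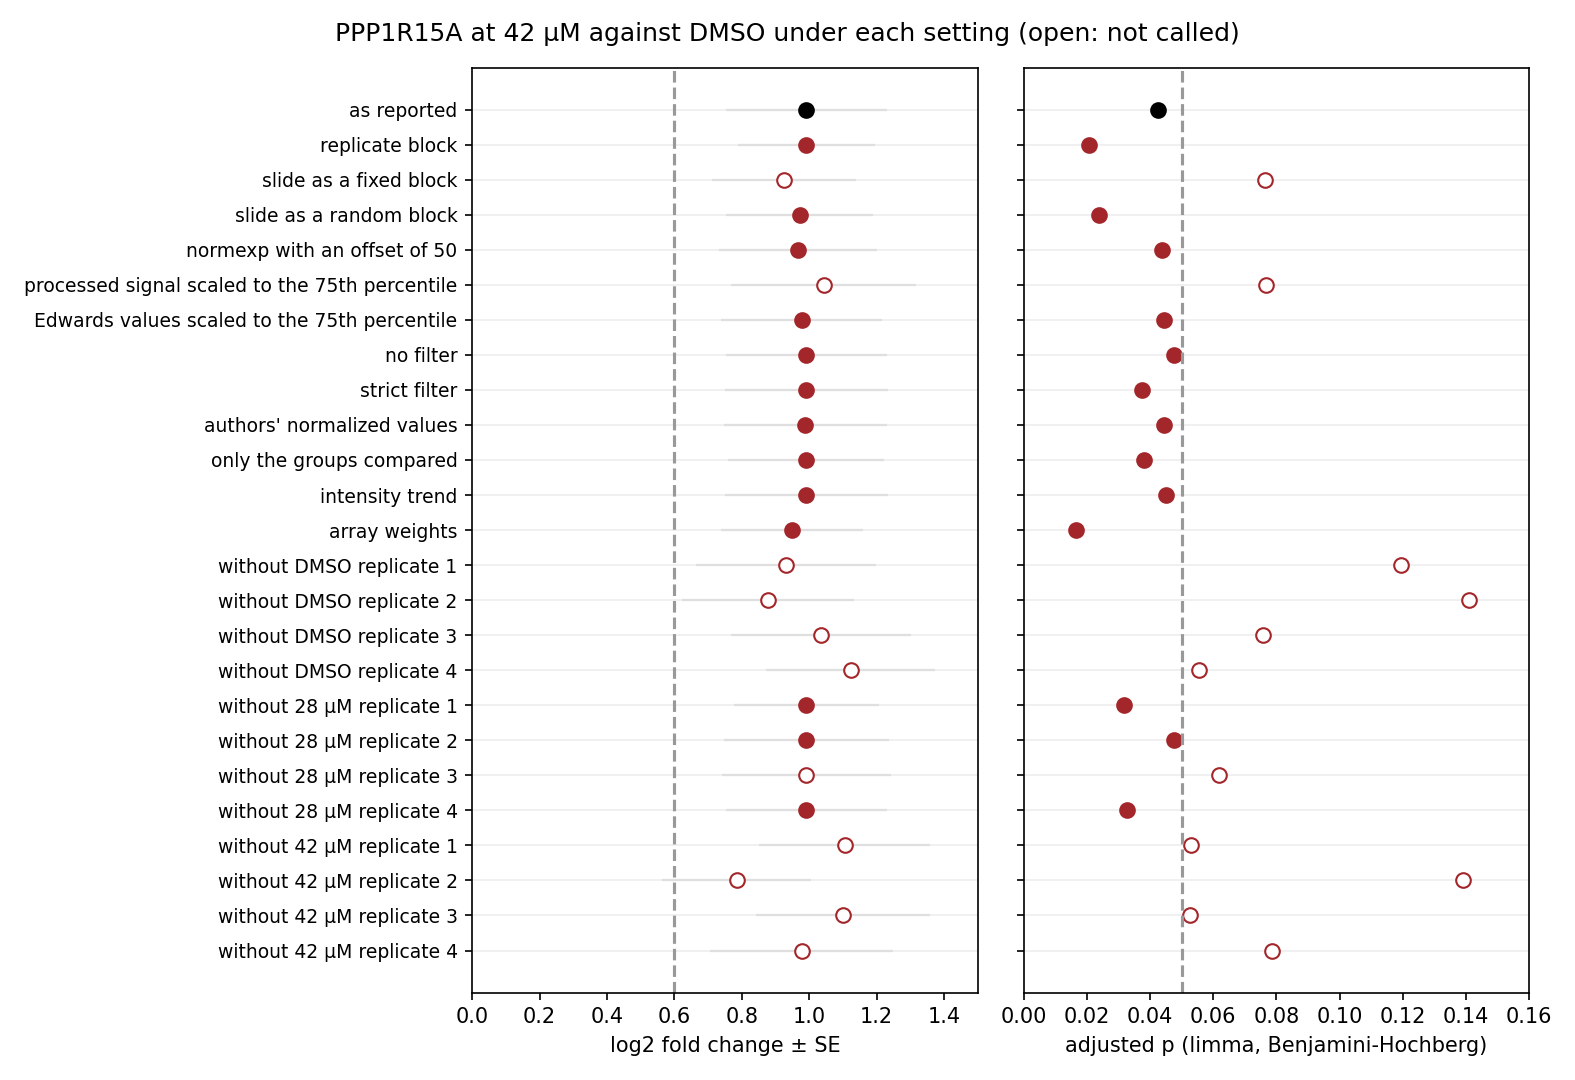
Log2 fold change ± SE (left) and adjusted p (right) of PPP1R15A at 42 µM against DMSO as reported (black) and under each alternative, with filled points where it was called, and dashed lines at the limits of 0.6 and 0.05. The change stayed between 0.78 and 1.12, while the adjusted p ran from 0.0166 to 0.141.

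Whether PPP1R15A changed more than the other members was tested on the difference of its level and that of each other gene on the same array, with two-sided exact permutation tests of 4 against 4 arrays that were added after the values were seen. PPP1R15A was picked as the member with the largest change, so that the direction of the differences was fixed in advance. The smallest p that such a test allows is 0.0286, which after adjustment falls below 0.05 only if most of the 12 comparisons reach it. At 42 µM its change exceeded that of EIF2AK4 by 1.30 (SE 0.24) and that of EIF2S1 by 1.27 (SE 0.27), each with an exact p of 0.0286, and with 0.0686 after Benjamini-Hochberg adjustment over the 12 comparisons. It exceeded that of PPP1R15B by 0.96 (SE 0.36, exact p = 0.0571, adjusted p = 0.0857). For EIF2AK1, EIF2AK2 and EIF2AK3 the differences at 42 µM were 0.67, 0.60 and 0.72, with adjusted p from 0.0857 to 0.249. At 28 µM the differences ran from 0.40 for EIF2AK2 to 0.86 for PPP1R15B, with adjusted p from 0.0686 to 0.543. None of the 12 passed after adjustment, and for these reasons the tests do not decide whether PPP1R15A changed more than the others.

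PPP1R15A and the stress factors did not run together on all treated arrays. At 28 µM replicate 4, on which the factors lay with DMSO, gave the highest PPP1R15A level of that dose, 9.57. Replicate 1 of 28 µM, on which the factors had a median of 1.79 above DMSO, gave the lowest, 8.76. At 42 µM replicates 1 and 3 gave near-equal levels, 9.28 and 9.29, with the factors at 2.35 and 1.17. On other arrays both were high: 42 µM replicate 2 was the highest of all in both, at 10.24 with the factors at 2.47. Replicate 2 of 28 µM read 9.52 with the factors at 1.79. Without 28 µM replicate 4 the number of all probes called at 28 µM went from 0 to 718, and none was a member. The change of PPP1R15A there was then 0.56 (adjusted p = 0.319).

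**Figure D3:**
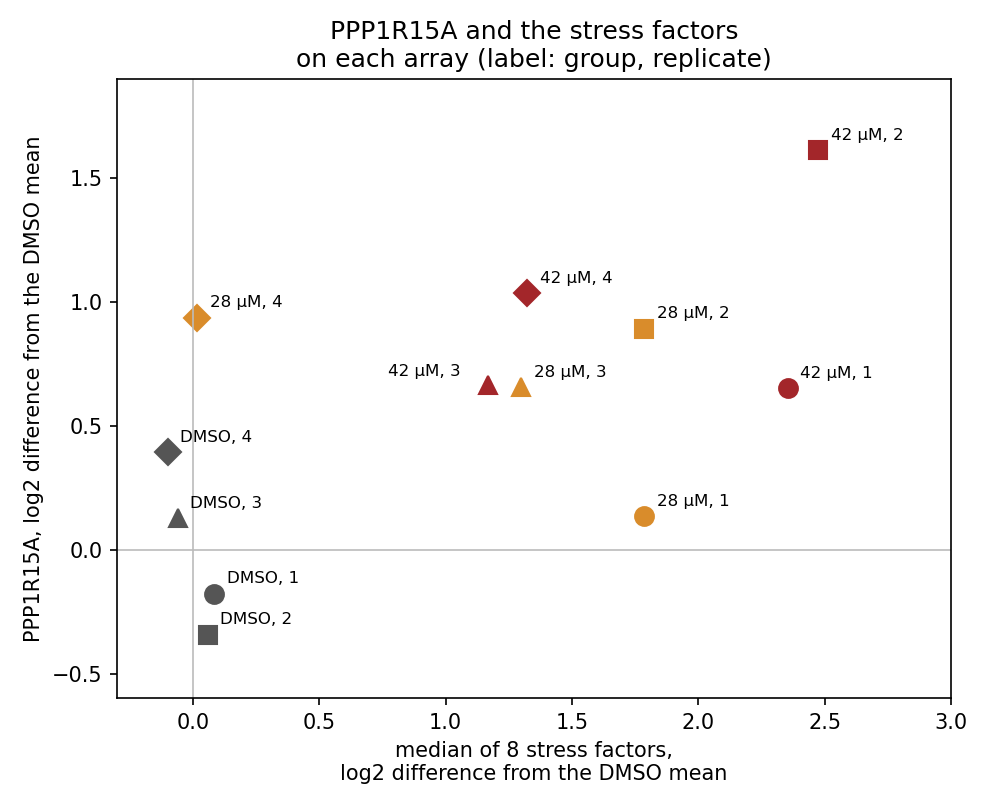
Difference of PPP1R15A from its DMSO mean (y axis, log2) against the median difference of 8 stress factors from theirs (x axis, log2), 1 point per array. On 28 µM replicate 4 the factors were at 0.02 with a PPP1R15A level of 9.57, and on 28 µM replicate 1 at 1.79 with 8.76. On 42 µM replicates 1 and 3 the factors were at 2.35 and 1.17, with levels of 9.28 and 9.29. On 42 µM replicate 2, the highest array in both, they were at 2.47 with a level of 10.24.

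PPP1R15B, the subunit that is made without stress, read 7.43, 7.30, 7.06 and 7.10 on DMSO, 6.997, 6.84, 7.13 and 7.09 at 28 µM and 7.49, 7.19, 7.21 and 7.12 at 42 µM. The groups overlapped at both doses. At 28 µM it differed from DMSO by −0.21 on the log2 scale (SE 0.13, interval −0.48 to 0.06, adjusted p = 0.570), and at 42 µM by 0.03 (SE 0.13, interval −0.24 to 0.30, adjusted p = 0.957). The interval at 42 µM excludes a rise of the size of the PPP1R15A value, 0.99. The probe, A_23_P160449, lies on chromosome 1, 204375139 to 204375198, on the minus strand.

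EIF2AK2, the kinase PKR, is itself an interferon-induced gene, and it is read by 2 probes. The brighter, A_23_P142750 on chromosome 2 from 37336386 to 37341880, read 10.35, 10.37, 10.45 and 10.31 on DMSO. It read 10.44, 11.06, 10.60 and 10.40 at 28 µM, and 10.66, 11.15, 10.71 and 10.53 at 42 µM. All 42 µM arrays lay above all DMSO arrays, by a small margin except on replicate 2. Against DMSO the log2 change came to 0.26 for 28 µM (SE 0.16, adjusted p = 0.589) and to 0.39 for 42 µM (SE 0.16, interval 0.04 to 0.74, unadjusted p = 0.0307, adjusted p = 0.252). The dimmer probe, A_32_P38003 on the same chromosome from 37327584 to 37327643, changed less, by 0.24 (adjusted p = 0.598) and 0.15 (adjusted p = 0.739), and its groups overlapped. No alternative called either probe.

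EIF2AK4, the kinase GCN2, read 8.67, 8.92, 9.05 and 9.08 on DMSO, 8.63, 8.83, 8.70 and 9.23 at 28 µM and 8.60, 8.65, 8.58 and 8.67 at 42 µM. The 42 µM arrays lay below all DMSO arrays, but the highest of them and the lowest DMSO array were equal to 2 decimals. The 42 µM arrays also stood closer together, with an SD of 0.04 against 0.19 on DMSO and 0.26 at 28 µM. On the log2 scale the change was −0.08 with 28 µM (SE 0.14, adjusted p = 0.859) and −0.30 with 42 µM (SE 0.14, interval −0.60 to 0.00, unadjusted p = 0.0478, adjusted p = 0.318). On 28 µM replicate 4 it read 9.23, the highest of all 12 arrays, and without that array the value at 28 µM was −0.21 (adjusted p = 0.449). The probe, A_23_P54540, spans chromosome 15, 40326645 to 40327286, on the plus strand. A further probe that the array's design names THC2564488 and describes by its likeness to this kinase is no member, and it gave −0.03 and −0.12 (adjusted p = 0.946 and 0.727).

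EIF2AK1, the kinase HRI, is read by 2 probes that did not behave alike. The brighter, A_23_P251173 on chromosome 7 from 6063733 to 6063792, read 11.58, 11.14, 11.37 and 11.52 on DMSO. It read 11.20, 11.58, 11.60 and 11.58 at 28 µM, and 11.32, 11.997, 11.89 and 11.68 at 42 µM. The change on the log2 scale was 0.09 for the lower dose (SE 0.16, adjusted p = 0.871) and 0.32 for the higher (SE 0.16, interval −0.03 to 0.67, adjusted p = 0.384), and the groups overlapped. Within the 3 slides that hold a 42 µM and a DMSO array the differences were −0.20, 0.63 and 0.75. Without 28 µM replicate 1 the value for the lower dose was 0.18 (adjusted p = 0.729). The dimmer probe, A_24_P123768, from 6062398 to 6062457, gave −0.08 (adjusted p = 0.909) and 0.00 (adjusted p = 0.996), with a level of 6.64 to 7.65 over the 12 arrays.

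EIF2AK3, the ER kinase PERK, was measured least well. Its single probe, A_23_P135857 on chromosome 2 from 88856582 to 88856641, was well above background on 3 of 4 DMSO arrays, 3 of 4 at 28 µM and 4 of 4 at 42 µM. It read 5.94, 6.69, 6.03 and 6.65 on DMSO, 7.30, 7.14, 5.80 and 5.95 at 28 µM and 7.31, 6.09, 6.47 and 6.51 at 42 µM. The 28 µM arrays fell into a high pair and a low pair, with an SD of 0.78. Its log2 changes were 0.22 with 28 µM (SE 0.35, interval −0.54 to 0.98, adjusted p = 0.847) and 0.27 with 42 µM (SE 0.35, interval −0.49 to 1.03, adjusted p = 0.815). The interval at 42 µM holds a change as large as that of PPP1R15A. The levels went with the slide: the 3 arrays of slide 2, 1 of each group, read 6.65 to 7.31, and those of slide 4 read 5.95 to 6.09. With the slide as a fixed block the value at 42 µM was 0.04 (SE 0.19, interval −0.40 to 0.47), which does not hold a change of 0.99, and with the slide as a random block 0.20 (SE 0.30, interval −0.44 to 0.84). With the processed signal it was 0.81 (SE 0.97), and over all 24 alternatives it ran from 0.03 to 0.81. At 28 µM it ran from −0.10 to 0.47, with 2 values below 0, and was 0.42 (adjusted p = 0.605) without replicate 4.

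EIF2S1, the substrate eIF2α itself, is read by 2 probes with like values. A_24_P138556, over a junction on chromosome 14 from 67847459 to 67848345, read 9.39, 9.57, 9.73 and 9.79 on DMSO. It read 9.49, 9.58, 9.41 and 9.92 at 28 µM, and 9.31, 9.23, 9.36 and 9.46 at 42 µM. The groups overlapped. The log2 differences from DMSO were −0.02 for 28 µM (SE 0.13, adjusted p = 0.973) and −0.28 for 42 µM (SE 0.13, interval −0.57 to 0.01, unadjusted p = 0.0557, adjusted p = 0.343). The second probe, A_24_P356015, from 67851409 to 67851468, gave 0.02 (adjusted p = 0.969) and −0.23 (SE 0.15, adjusted p = 0.540). Both probes read highest on 28 µM replicate 4, at 9.92 and 9.26, the array that also gave the highest EIF2AK4 level. Without it the values at 28 µM were −0.12 (adjusted p = 0.658) and −0.09 (adjusted p = 0.793).

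**Figure D4:**
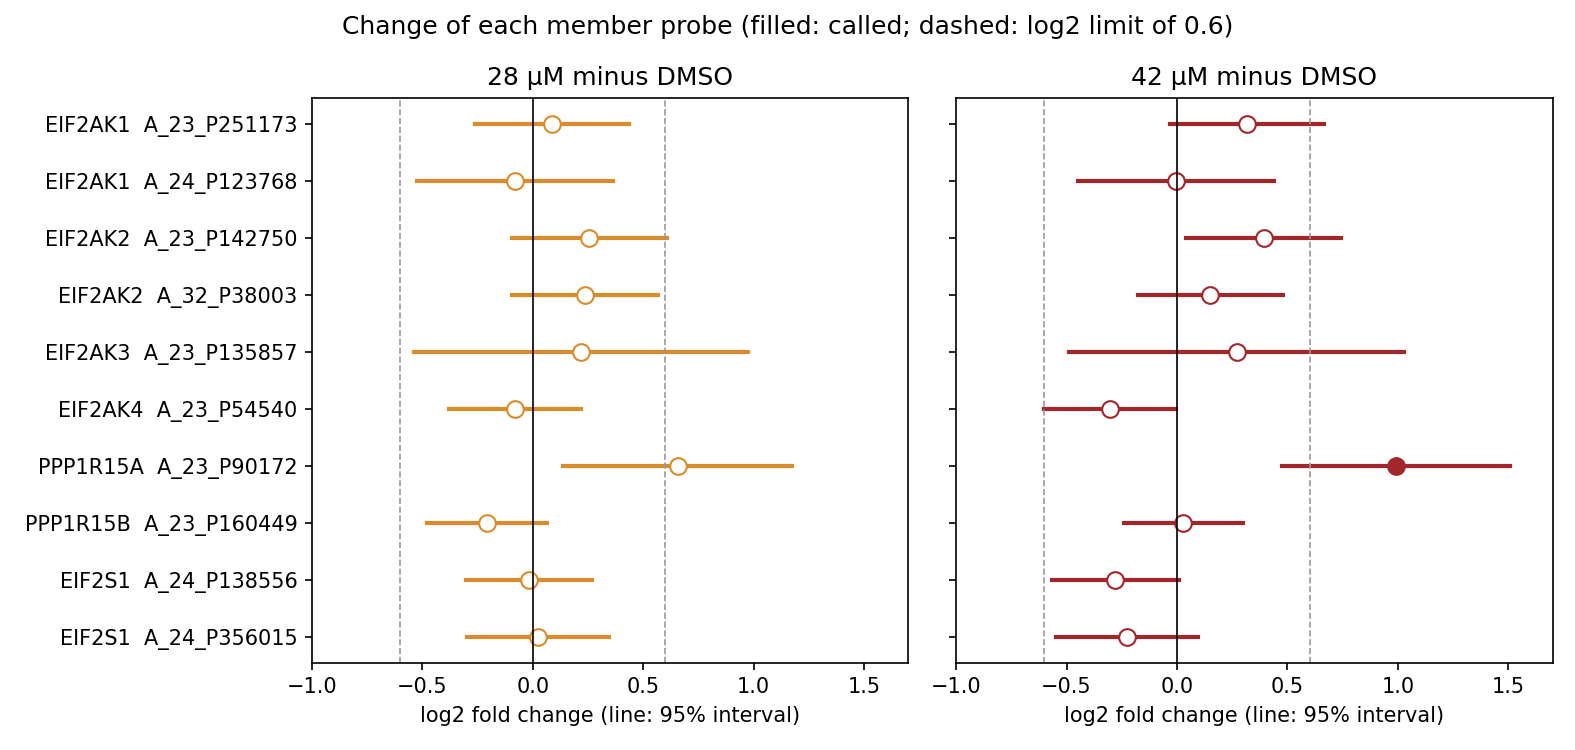
Log2 fold change of the 10 member probes (x axis) at 28 µM and at 42 µM against DMSO, with 95% intervals from limma, a filled point where the probe was called and dashed lines at 0.6 in both directions. PPP1R15A at 42 µM is the only filled point, at 0.99 with an interval of 0.47 to 1.51, and the interval of EIF2AK3 is the widest.

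The promoters of PPP1R15A and EIF2AK2 are shown because these genes are known for being switched on by transcription, PPP1R15A under stress and EIF2AK2 by interferon. Sequences of 6 of the 7 members, all but EIF2AK1, were found in RefSeq for GRCh38.p14, in windows from 250 bases before to 50 after the start. In these 6, 5 motifs were searched on both strands, and EIF2AK1 was not searched. The cyclic AMP response element TGACGTCA was found in PPP1R15A, at −58 to −51 from the start, and in no other searched member, while 1.85% of all 35116 windows hold it. The interferon response core GAAANNGAA was found in EIF2AK2, across the start at −6 to 3, and in no other searched member, and 8.11% of windows hold it. The motif that ATF4 binds with C/EBP partners, TGATGNAAN, was found in PPP1R15B at −227 to −219 and in 3.61% of windows. CCACG was found in 4 members and 38.1% of windows, and CCAAT in 3 members and 34.6%. In the stretches below, from −120 to −1 of PPP1R15A (chr19:48872301-48872420, plus strand) and from −60 to 10 of EIF2AK2 (chr2:37156971-37157040, minus strand), capitals mark the first and the second of these motifs.
PPP1R15A: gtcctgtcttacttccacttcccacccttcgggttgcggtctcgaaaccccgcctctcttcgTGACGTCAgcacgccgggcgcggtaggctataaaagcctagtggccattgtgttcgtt
EIF2AK2: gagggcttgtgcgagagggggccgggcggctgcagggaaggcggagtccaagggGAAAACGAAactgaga

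The genes that work beside the members were read from 6 lists, with the brightest tested probe standing for a gene. The lists were chosen with earlier results of these data known, so that their counts and medians are descriptions and no independent test. Over all 24259 gene names tested the median log2 fold change at 42 µM was −0.02 and 2.99% were called. Of the stress factors that lie downstream of eIF2α, which are transcription factors and regulators of transcription together with the pseudokinase TRIB3, 7 of 8 were called at 42 µM, 6 as higher and 1 as lower, with a median of 1.79. ATF4 rose by 0.76 (SE 0.12, adjusted p = 0.0125), and DDIT3, which encodes CHOP, by 2.19 (SE 0.41, adjusted p = 0.0167). Scaling to the 75th percentile lost the call of ATF4 and kept that of DDIT3. ATF4 then gave 0.59 (adjusted p = 0.154) with the processed signal and 0.62 (adjusted p = 0.0883) with the Edwards values. TRIB3, which CHOP induces, rose by 2.19, ATF3 by 2.13, NUPR1 by 2.61 and CEBPB by 1.45, with adjusted p from 0.0160 to 0.0303. ATF5 was lower, by −0.70 (adjusted p = 0.0402), and CEBPG was at 0.95 (adjusted p = 0.0766). At 28 µM 0 of 8 were called by limma, while all 8 had an unadjusted p below 0.05, 7 of them higher, beside 11.9% of all gene names, with a median of 1.27. Without 28 µM replicate 4, the array on which they lay with DMSO, 6 of the 8 were called there, all as higher, with a median of 1.54, and ATF5 and CEBPG were not. At 42 µM the count of 7 went to 0 without DMSO replicate 2 or 42 µM replicate 2 and with the slide as a fixed block, while it was 8 with the slide as a random block. It was 2 without DMSO replicate 1 or 4, 3 without DMSO replicate 3, and 4 without 42 µM replicate 1 or with the processed signal, and the median stayed between 1.52 and 1.96.

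None of the other lists had a gene called by limma at either dose. At 42 µM an unadjusted p below 0.05 was given to 3 of 10, 0 of 3, 1 of 11, 1 of 6 and 3 of 13 genes in the order below, beside 16.1% of all gene names, and at 28 µM to 3, 0, 1, 0 and 2. The first list holds 7 subunits of the eIF2 complex and of its exchange factor eIF2B, with EIF5, EIF2A and EIF2D, which also act in the start of translation. Its median was 0.08 for the lower dose and 0.06 for the higher, and that of the 7 subunits alone was 0.00 and −0.09. The largest values at 42 µM were −0.45 for EIF2B3, a subunit of eIF2B (adjusted p = 0.132), and 0.42 for EIF2S3, the γ subunit of eIF2 (adjusted p = 0.201). The 3 catalytic subunits of PP1, which both PPP1R15 proteins recruit, lay between −0.19 for PPP1CC and −0.08 for PPP1CA at 42 µM, with −0.09 for PPP1CB. Of 11 proteins that act on the kinases, the largest values at 42 µM were −0.45 for TARBP2, an inhibitor of PKR (adjusted p = 0.441), and 0.37 for DELE1, which carries mitochondrial stress to HRI (adjusted p = 0.745). The 6 genes of the other ER stress branches had a median of 0.21 at 28 µM and 0.32 at 42 µM, beside −0.02 for all gene names at both doses. At 42 µM these genes ran from 0.045 to 0.81. ERN1, which encodes the sensor IRE1, was at 0.81 (SE 0.27, adjusted p = 0.130), and MBTPS2, a protease that activates ATF6, at 0.40 (adjusted p = 0.453). Of 13 interferon-induced genes, a list that bears on EIF2AK2, 5 were higher at 28 µM and 7 at 42 µM, with medians of −0.09 and 0.03. OAS1, which makes the activator of RNase L, was at 1.10 (SE 0.30, adjusted p = 0.0707) and IFIT1, which binds foreign RNA caps, at −0.72 (SE 0.21, adjusted p = 0.0808).

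**Figure D5:**
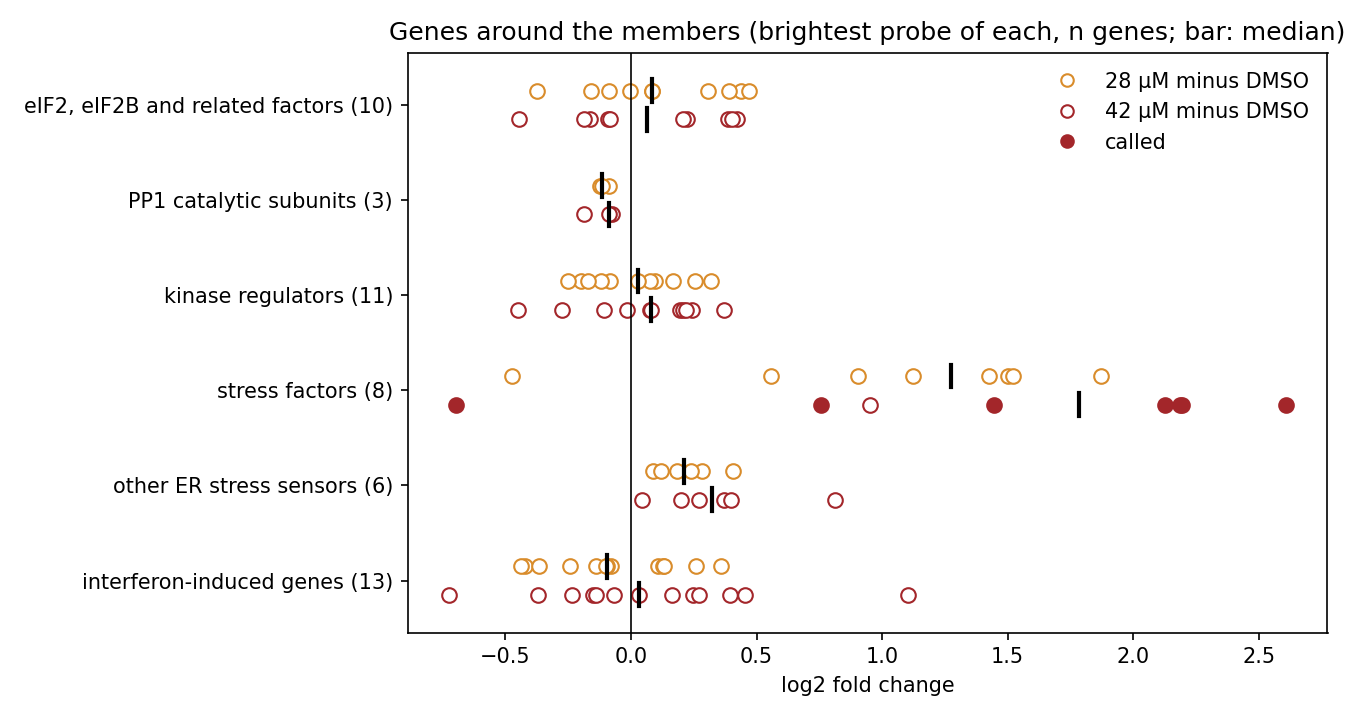
Log2 fold change (x axis) of the genes of 6 lists at 28 µM and 42 µM against DMSO, 1 point per gene, filled where called, with the median of each list as a bar and the number of genes in brackets. Filled points are found among the stress factors at 42 µM, 6 above 0 and ATF5 below it.

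The genes whose levels ran most like a member over the 12 arrays are given by Pearson's r as a description, since the arrays share treatments and slides. For PPP1R15A they were VAC14 (r = 0.97), FOXO3 (0.96), RNF5 (0.96), FBLIM1 (0.95) and ARVCF (0.95). Of these FBLIM1, a filamin-binding protein, was called at 42 µM, with a log2 fold change of 0.61 (adjusted p = 0.0462), and the others lay between 0.33 and 0.64 without a call. For EIF2AK2 the first were CYP4F2 (0.97) and TES (0.97), and those for EIF2AK1 included TBC1D2 (0.94). For EIF2AK4 they were NDC80 (0.96), KIF20B (0.95), TTK (0.95), PDK1 (0.95) and EPO (0.94), with log2 fold changes from −0.97 to −0.44 at 42 µM and none called. For EIF2S1 they were CKAP5 (0.95), lnc-POLR1E-1 (0.95), CPS1 (0.94), TTK (0.94) and KIF20B (0.93), so that TTK and KIF20B stand in both.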

How the data were processed

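Total RNA of 12 cultures of HuH-7 cells was hybridised to 1-colour Agilent arrays. The authors deposited the output of Agilent Feature Extraction 10.7.3.1 for each array, in which every spot has a mean intensity, a median background intensity and flags, before any normalization between arrays. A second deposited table holds log2 values from the authors' own Edwards correction and quantile normalization, and served as an alternative. Per the file headers the probe positions are on hg19. Depth does not apply to arrays, and their number limits the precision.

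From the deposited intensities of 45015 spots, the 1639 controls and any spot flagged as an outlier were dropped. As in the study's methods, limma 3.58.1 (R 4.3.3, with data.table in version 1.17.8) corrected the background after Edwards and normalized the arrays by quantiles, and the spots of a probe were averaged. The lowest correlation of an array with the authors' log2 values was 0.999. Probes well above background on fewer than 2 arrays of every group, 7524 of 41000, were left out. Names came from RefSeq accessions for 68.5% of the probes and otherwise from the array's design. A linear model with the group as its only term was fitted to the 12 arrays with lmFit and eBayes, and two-sided p-values were adjusted over 33476 probes with the Benjamini-Hochberg method. The limit of 0.6 is that of the study's results, and its methods give a 2-fold limit, tried as an alternative.

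All member probes were named, with the brightest standing for a gene where one was needed, and from the lists the called genes and the 2 with the largest change at 42 µM. The members and lists were chosen with earlier results of these data known. On simulated data with 33410 probes, 100 were changed by 1 and 100 by 1.5 on the log2 scale. Of these 74% and 95% were recovered in the comparison of 42 µM with DMSO, and 78% and 92% in that of 28 µM. The simulated noise was independent between probes and arrays, with no slide effect and the same change on each array of the dose. The deposited arrays need not be so, and the recovery of such changes on them was not tested. On those arrays limma called 0 probes at 28 µM, where DDIT3 was at 1.50, TRIB3 at 1.52 and NUPR1 at 1.87. The alternatives were the replicate number or the slide as a block, normexp with an offset of 50, scaling to the 75th percentile of the processed signal or of the Edwards values, no filter, a strict filter, the authors' values, only the groups compared, an intensity trend, array weights, other limits, and leaving out each array. Neither the replicate number nor the slide is a term of the main model, and whether the numbers pair the arrays is not settled. Plots were made with Python 3.11.15 and matplotlib 3.10.9. The study's qPCR, protein and animal measurements were not analysed here. One gene among those with levels most like EIF2AK1 is not reported here.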

Additional observations from a re-analysis of the deposited data

Results flagged for a closer look

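Of 30 groups of 4 values, 10 probes in 3 groups, 1 held an array far from the other 3. The brighter EIF2AK1 probe, A_23_P251173, read 11.20 on 28 µM replicate 1, and the gap to the nearest other array was 0.938 of the group's range. Chance alone gives such a group in about 5% of cases. The other 28 µM arrays read 11.58 to 11.60. On the same array PPP1R15A gave the lowest of its 28 µM values, 8.76, and the array had the highest share of gene spots well above background, 85.0%. Without this array the change at 28 µM was 0.18 in place of 0.09 for the EIF2AK1 probe, and 0.83 in place of 0.66 for PPP1R15A, with no call in either case.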

How the results depend on the processing

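Over 24 alternatives the 30 values of the member probes gave 720 results, of which 709 kept their direction and their side of the limits, or lay under the limits in both cases, 11 were no longer called and 0 reversed. All 11 are PPP1R15A at 42 µM. The number of members called at 42 µM, 1, went to 0 with the slide as a fixed block, with the processed signal scaled to the 75th percentile and with a log2 limit of 1, and ran from 0 to 1 when single arrays were left out. At 28 µM, and between the doses, it stayed at 0 in all alternatives. With the replicate number as a block 1 member was called at 42 µM, PPP1R15A with an adjusted p of 0.0208. Whether the numbers pair the arrays is not settled. The correlation of same-numbered deviations ran from −0.46 to 0.62, with a median of 0.22 against −0.07 for other numbers. For arrays of the same slide the median was 0.26, against −0.05 for other slides. Of the 12 arrays, 5 correlated best with one of their own number.

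Over all probes the number called at 42 µM was 885, 472 higher and 413 lower, and 319 and 493 when the Edwards values were scaled by the 75th percentile instead. It was 1368 with the replicate block, 1 with the slide as a fixed block, 1116 with the slide as a random block, 366 with a log2 limit of 1, and between 0 (without DMSO replicate 2 or 42 µM replicate 2) and 1220 (without 28 µM replicate 4) when single arrays were left out. For the 7 called stress factors 46 of 168 results lost the call. These calls, repeated after the data were seen, and the cause of the losses were not tested further. Leaving out an array or adding the slide also leaves fewer degrees of freedom. EIF2AK3 lies near background, and its SE at 42 µM ran from 0.19 with the slide as a fixed block to 0.97 with the processed signal.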
